A study of Mus musculus with 18 samples.

Results

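Mouse germ cells that were still dividing by mitosis, labelled Diff.Spg, were compared with cells in early meiotic prophase, labelled LZ, passing over the intermediate population PreL. All 3 Diff.Spg and all 3 LZ libraries, 6 of the 18 libraries of the series, entered the comparison, and every gene that passed a filter on low counts was kept, 18547 of the 46603 genes in the table. The cells of all 6 populations (Undiff.Spg, Diff.Spg and PreL, then LZ, PD and RS) were sorted on an Aria 3 from testes of adult male mice that carried the Stracre-GAG-tdTomato transgenes. The strain is labelled C57BL/6, while the protocol text gives the background as C57BL/5. RNA was isolated with a Qiagen kit and treated with DNase, and libraries were sequenced in single-read mode. The labels do not spell out the names of the populations, and they do not say how many mice each library came from, so the p-values measure the spread between these libraries, which may be technical.

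A spermatogonium that has answered retinoic acid divides by mitosis several more times, replicates its DNA once more and then enters a long meiotic prophase. At the start of that prophase the chromosomes are broken on purpose by SPO11, the broken ends search for the partner chromosome with the help of recombinases such as DMC1, and the partners are joined along their length by the synaptonemal complex. The same step needs the germ cell to stop the mitotic programme, and the transcription factors STRA8 and MEIOSIN are known in mice for turning on the meiotic genes together.

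Promoters of a few genes are shown first, chosen because they hold a pair of motifs and belong to genes whose RNA moved in opposite directions. The first 3 belong to genes that were higher in LZ and hold both CACGTG, an E-box that reads alike on either strand, and GCGGGA, a form of the site that E2F factors bind. The capitals mark these motifs on either strand, and each stretch ends before the start of the gene.

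Hormad1: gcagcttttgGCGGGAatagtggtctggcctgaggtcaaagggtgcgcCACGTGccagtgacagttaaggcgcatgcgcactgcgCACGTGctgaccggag

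Tex12: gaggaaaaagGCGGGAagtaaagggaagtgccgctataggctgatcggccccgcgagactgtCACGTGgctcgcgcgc

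Sycp3: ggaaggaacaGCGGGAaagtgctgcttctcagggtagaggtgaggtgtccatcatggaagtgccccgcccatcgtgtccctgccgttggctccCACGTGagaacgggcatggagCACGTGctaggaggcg

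These lie at chr3:95559572-95559672 on the plus strand, chr9:50561346-50561423 on the minus strand and chr10:88459430-88459559 on the plus strand of GRCm38.p6, from RefSeq, and all letters run 5′ to 3′ along the gene. The next 3 belong to cell division genes that were lower in LZ and hold both CCAAT, the site of the factor NF-Y, and TTTGAA, the cell cycle homology element of genes expressed late in the cell cycle. The capitals mark either strand of these motifs, so ATTGG stands for CCAAT and TTCAAA for TTTGAA, and in Ube2c a pair of CCAAT matches on opposite strands overlaps.

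Ube2c: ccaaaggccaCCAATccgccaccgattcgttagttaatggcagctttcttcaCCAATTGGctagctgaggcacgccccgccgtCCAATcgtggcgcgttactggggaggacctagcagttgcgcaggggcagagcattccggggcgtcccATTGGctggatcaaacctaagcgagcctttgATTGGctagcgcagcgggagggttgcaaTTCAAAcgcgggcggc

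Cdc20: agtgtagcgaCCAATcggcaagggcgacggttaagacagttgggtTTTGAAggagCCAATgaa

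Ccnb2: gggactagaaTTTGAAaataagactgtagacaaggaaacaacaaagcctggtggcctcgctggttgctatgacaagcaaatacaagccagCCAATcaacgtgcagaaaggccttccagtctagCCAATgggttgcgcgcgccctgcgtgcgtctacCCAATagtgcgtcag

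They lie at chr2:164769691-164769915 on the plus strand, chr4:118437344-118437406 on the minus strand and chr9:70421561-70421731 on the minus strand. The motifs were searched on both strands from 250 bases before to 50 bases after each gene's start. CACGTG and GCGGGA stood together in 9 of 61 promoters (14.8%) of the meiotic and piRNA genes that were higher in LZ, in 1.99% of all 32851 promoters of the RefSeq table and in 3.35% of those of the tested genes. CCAAT and TTTGAA stood together in 11 of 17 promoters (64.7%) of the mitosis genes that were lower in LZ, in 6.95% of all promoters and in 5.22% of those of the tested genes. Over all genes at least 2-fold higher or lower in LZ, the pairs did not follow these directions. The first pair was found in 2.74% of the promoters of the higher genes and in 4.18% of those of the lower genes. The second pair was found in 5.34% of the promoters of the higher genes and in 4.58% of those of the lower genes. A match says only that these letters are present in the window.

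The 6 libraries held between 11777947 and 14660378 counts each, and the 18 libraries between 11777947 and 16607462. Pairs of replicates differed by 2.43 to 48.4 times the variance that counting alone gives, so no library was a copy of another, and the correlation of their log2 levels ran from 0.961 to 0.993. The LZ libraries differed among themselves by 15.7 to 30.8 times the counting variance and the Diff.Spg libraries by 2.43 to 2.93 times. Levels are given in CPM, the usual unit of counts brought to a common library total, here with TMM factors, and they are not corrected for gene length. In bulk libraries fewer cells of a type cannot be told apart from less RNA per cell.

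Between Diff.Spg and LZ 3886 genes rose at least 2-fold and 4467 fell at least 2-fold, which is 21% and 24.1% of the genes tested (edgeR quasi-likelihood test, Benjamini-Hochberg adjusted p under 0.05). Without the fold condition 5705 genes (30.8%) rose and 6013 (32.4%) fell, 63.2% in either direction. Changes of at least 32-fold were made by 440 genes that fell and by 84 that rose. Of the genes that rose, 1928 (49.6%) had their highest mean of the whole series in LZ, 709 (18.2%) in PD and 1076 (27.7%) in RS. Among those highest in PD or RS, 603 were not called at least 2-fold higher without LZ replicate 2 (below). Of the genes that fell, 1943 (43.5%) were highest in Undiff.Spg and 1353 (30.3%) in Diff.Spg. The 3 LZ values lay wholly above or wholly below the 3 Diff.Spg values for 12809 genes (69.1%). PreL, the population in between, had an intermediate mean for 76.5% of the genes that rose and for 76.4% of those that fell. At the median 43.7% of the log2 rise and 50.5% of the log2 fall was already present in PreL. These PreL shares include PreL replicate 2 and LZ replicate 2, which read more RNA of late genes than their fellow libraries (below). The shares were not recomputed without them.

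LZ replicate 2 stands apart from the other LZ libraries in its level of genes of later germ cells. Over 439 genes with at least 50 CPM in PD and RS and under 1% of that level in Undiff.Spg and Diff.Spg, LZ replicate 2 read a median of 3.3% of the PD and RS level, LZ replicate 1 read 0.393% and LZ replicate 3 read 0.557%. PreL replicate 2 read 3.38%, and PreL replicates 1 and 3 read 0.319% and 0.725%. The 3 Diff.Spg libraries read between 0.162% and 0.376%, but the rule that chose the genes keeps them low. The lists of late genes are therefore given below with and without LZ replicate 2. Without it 3359 genes rose at least 2-fold, 3231 of them among the 3886, and 4438 fell, 4213 of them among the 4467. With PreL replicate 2 also left out 3639 rose, 3472 of them among the 3886, and 4534 fell, 4249 of them among the 4467.

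**Figure D1:**
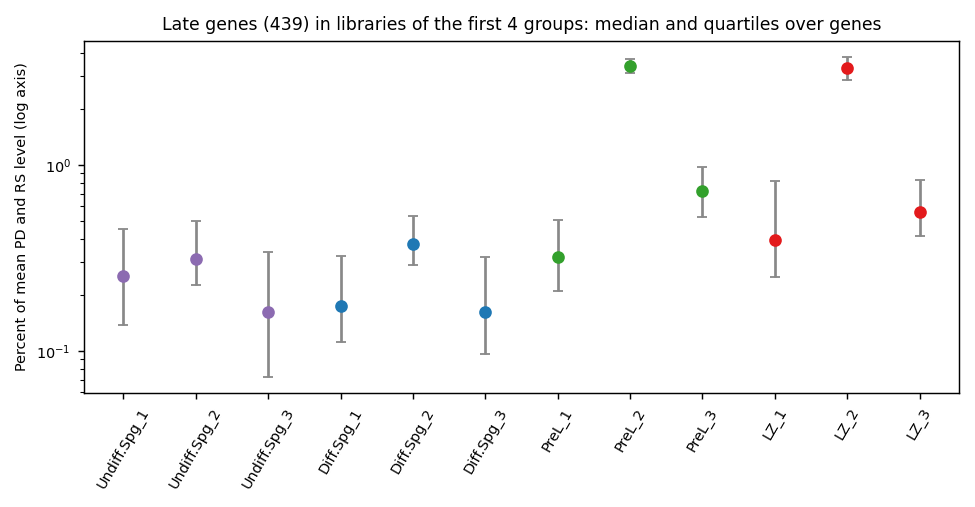
Level of 439 late genes in each library of the first 4 populations, as a percentage of their mean level in PD and RS on a log axis; points are medians over genes and bars the quartiles. PreL replicate 2 (3.38%) and LZ replicate 2 (3.3%) sit above the other PreL and LZ libraries, which lie between 0.319% and 0.725%. The Undiff.Spg and Diff.Spg libraries (0.162% to 0.376%) are low by the rule that chose the genes.

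Most genes of the spermatogonial state fell between Diff.Spg and LZ. Of 26 genes known from undifferentiated spermatogonia, 22 fell and 2 rose, with a median log2 difference of -4.45 beside 0.06 for all tested genes. The median is -4.29 where the 2 genes with no read in LZ are put at the smallest fall that 3 counts over the group allow. All 22 genes called between Diff.Spg and PreL were lower in PreL, with a median of -2.76 over the list, when 24.8% of all tested genes fell. From PreL to LZ 9 members (34.6%) fell and 2 (7.69%) rose, when 23.2% of all tested genes fell and 24.3% rose. Most members were thus not called in the second step. Of 19 genes known from differentiating spermatogonia, 16 fell and 3 rose, with medians of -1.02 to PreL, -1.39 from PreL to LZ and -2.49 in all. The 3 that rose were Stra8, the X-linked homeobox gene Rhox13 and Prss50, a testis protease gene.

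Kit, the receptor of stem cell factor and the classical surface marker of differentiating spermatogonia, read 647, 532 and 590 CPM in Diff.Spg, 347, 261 and 278 in PreL and 187, 155 and 137 in LZ. The 3 populations did not overlap, and Undiff.Spg libraries read between 15.9 and 18.2 CPM. The fall to LZ was 3.69-fold (log2 -1.89 ± 0.14 SE, edgeR adjusted p = 6.23e-09), and the falls in the first and the second step did not differ by the test (step difference 0.11 ± 0.24, adjusted p = 0.749). Ccnd2, which encodes cyclin D2, the partner of CDK4 in the first part of the cell cycle, read 77.97, 85.1 and 91.8 CPM in Diff.Spg, 0.625, 0.439 and 0.429 in PreL, and 0, 0.352 and 0.514 in LZ. Nearly all of its fall lay before PreL, with a log2 difference of -7.38 to PreL and of -0.76, which did not pass the test, from PreL to LZ (step difference 6.62 ± 1.03, edgeR adjusted p = 0.000159). Lin28a, which encodes an RNA-binding protein that blocks let-7 maturation, behaved likewise, with 147 ± 11.2 CPM in Diff.Spg, 1.35 ± 0.416 in PreL and 2.01 ± 1.02 in LZ (SD, n = 3).

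Dmrt1, a transcription factor gene whose loss in mouse spermatogonia brings early entry into meiosis, followed another course. It read 852, 790 and 796 CPM in Diff.Spg, 660, 487 and 758 in PreL and 235, 181 and 189 in LZ. Diff.Spg and PreL lay close together and all LZ libraries lay below them, a fall of log2 -2.01 ± 0.23 (edgeR adjusted p = 1.02e-06) of which -1.65 came after PreL (step difference -1.30 ± 0.38, adjusted p = 0.0142). Dmrtb1, which encodes a factor that acts at the mitosis to meiosis switch, reached 650 ± 147 CPM in PreL from 390 ± 46.4 in Diff.Spg and stood at 96.5 ± 30.4 in LZ (SD, n = 3). Its log2 difference was 0.74 in the first step and -2.75 in the second. Sohlh1, a helix-loop-helix factor gene of spermatogonia, fell by 2.97 on the log2 scale in nearly equal steps (edgeR adjusted p = 8.28e-09). Dnmt3b, a de novo DNA methyltransferase gene, went from 294 ± 11.9 CPM to 66.0 ± 12.4 and then to 7.73 ± 0.637 (SD, n = 3; 38.0-fold in all).

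With predicted, Riken and mitochondrial genes left out, the 10 largest falls among genes with at least 50 CPM in Diff.Spg included those of Trim71, Erg, Pramef12, Ccnd2, Myh6, Podxl, Egr4, Lin28a and Sh3d19. Trim71, which encodes the ubiquitin ligase LIN41 and lies at chr9:114507133-114564369, read 193, 191 and 204 CPM in Diff.Spg, 10.6, 3.02 and 4.21 in PreL, and 0, 0.282 and 0.220 in LZ. Its fall was 1171-fold (log2 -10.09 ± 0.66, edgeR adjusted p = 1.39e-09), with -5.04 in the first step and -5.05 in the second. Erg, which encodes an ETS transcription factor, had 54.9 ± 2.10 CPM in Diff.Spg and 1 LZ library with any read (0.147 CPM). The receptor gene Ret, which mediates the GDNF signal in stem cells, went from 18.2 ± 5.67 to 0.170 ± 0.105 CPM, and the zinc finger genes Zbtb16 and Sall4 fell by 5.15 each on the log2 scale. Neurog3 had no read in LZ, and its level of 4.68 ± 0.498 CPM in Diff.Spg was at least 63.8-fold higher, taking 3 counts over the LZ group as the floor. Id4, a marker of stem cells, stayed low, at 2.62 ± 0.602 CPM in Diff.Spg and 2.58 ± 0.822 in LZ (adjusted p = 0.961).

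In the list of retinoic acid genes 8 of 16 (50%) fell and 2 (12.5%) rose, beside 32.4% and 30.8% of all tested genes, with a median of -1.13. The receptor genes Rara, Rarb and Rxra fell by 1.29, 5.23 and 3.93, and Cyp26a1, whose product degrades retinoic acid, fell by 5.63. The 2 genes that rose encode enzymes that make retinoic acid, Rdh10 (log2 2.33) and Aldh1a2, which went from 42.9 ± 2.56 CPM in Diff.Spg through 66.7 ± 4.29 in PreL to 186 ± 50.04 in LZ (SD, n = 3).

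**Figure D2:**
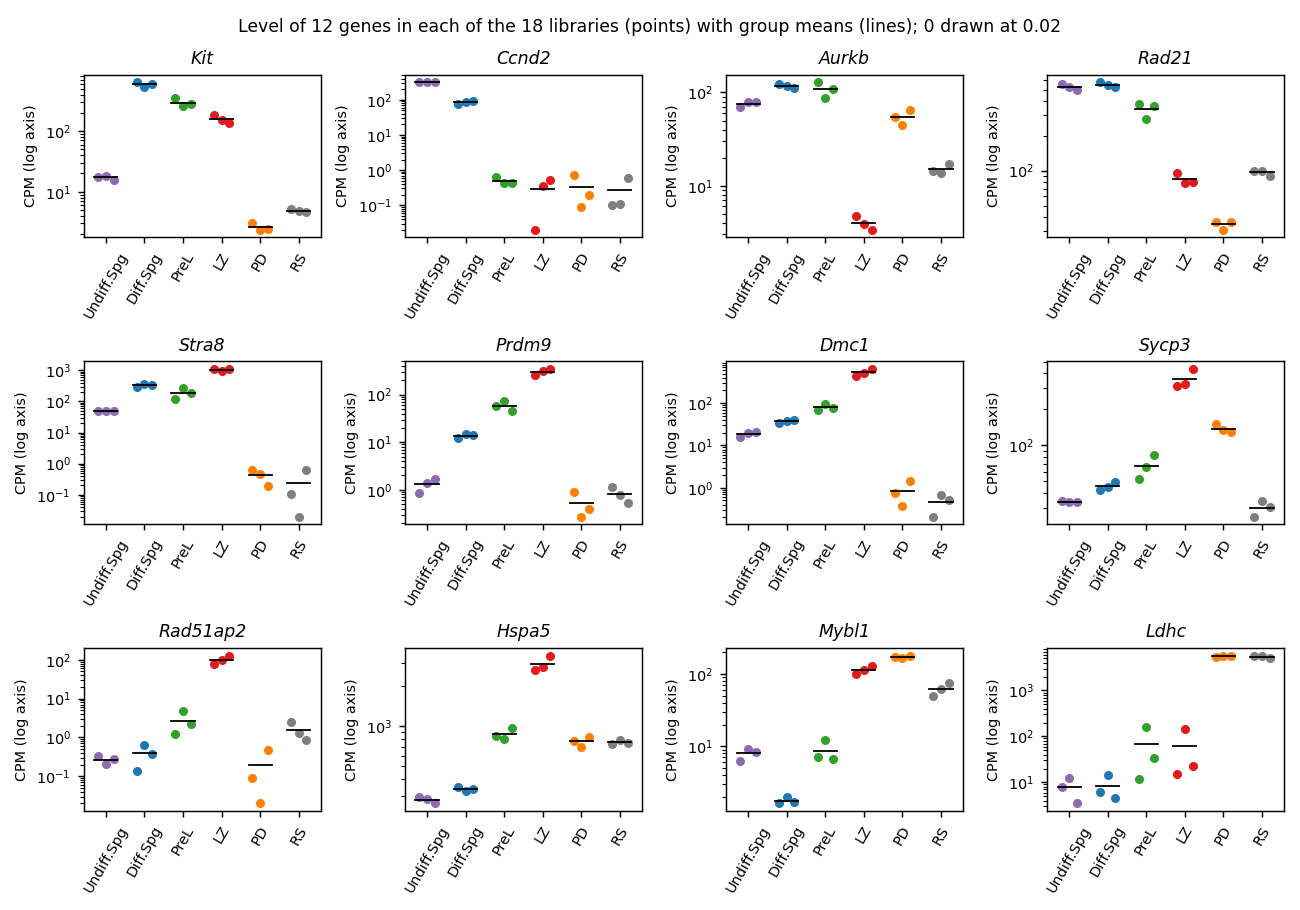
CPM of 12 genes on log axes in each of the 18 libraries (points) with group means (lines), from Undiff.Spg on the left to RS on the right; a library with no read is drawn at 0.02. Ccnd2 is low from PreL on, Aurkb drops after PreL, Rad51ap2 is high in LZ alone among the 6 populations, and LZ replicate 2 (147.9 CPM) stands above the other LZ libraries for Ldhc.

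Most genes of mitosis fell after PreL. Of 35 such genes 17 were higher and 1 was lower in PreL than in Diff.Spg, when 20.4% of all tested genes rose and 24.8% fell. From PreL to LZ 25 fell and 6 rose, when 23.2% of all tested genes fell and 24.3% rose, so that 21 were lower and 6 higher in LZ than in Diff.Spg, with a median of -0.79. The step difference was negative and called for 24 of the 35, against 16.3% of all genes tested. Aurkb, at chr11:69045647-69051664, encodes the kinase of the chromosomal passenger complex that corrects faulty attachment to the spindle. It read 122, 116 and 112 CPM in Diff.Spg, 130, 88.1 and 109 in PreL, and 4.75, 3.88 and 3.38 in LZ. Diff.Spg and PreL overlapped, and every LZ library was far below both. The fall to LZ was 29.2-fold (log2 -4.87 ± 0.20, edgeR adjusted p = 1.54e-11), with -0.10 in the first step and -4.76 in the second. The step difference (-4.66 ± 0.28, edgeR adjusted p = 6.52e-08) was the largest negative one among genes with at least 50 CPM in Diff.Spg, PreL or LZ. Predicted, Riken and mitochondrial genes were left out of this ranking.

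Incenp, which encodes the scaffold of the same complex, fell by 2.48 on the log2 scale, from 305 ± 14.7 to 54.6 ± 3.43 CPM, while Birc5 and Cdca8, which encode the other members of the complex, did not pass the test (0.11 and -0.17). Plk1, the Polo-like kinase gene that drives mitotic entry, read 200 ± 17.9 CPM in Diff.Spg, 291 ± 70.0 in PreL and 38.9 ± 11.98 in LZ (SD, n = 3). Ccnb1, which encodes cyclin B1, stood at 60.6 ± 1.73, 49.5 ± 9.81 and 9.64 ± 3.50 CPM, a fall of 6.29-fold (edgeR adjusted p = 7.21e-08). The genes with the CCAAT and TTTGAA promoters shown above belong to the same group. Ube2c and Cdc20, which encode the ubiquitin-conjugating enzyme and the activator of the anaphase-promoting complex, fell by 1.85 and 1.47, and Ccnb2, which encodes cyclin B2, fell by 1.34.

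Other mitosis genes rose. Bub1, which encodes a spindle checkpoint kinase, read 138, 143 and 133 CPM in Diff.Spg and 587, 621 and 748 in LZ. The groups lay well apart, a rise of 4.73-fold (log2 2.24 ± 0.12, edgeR adjusted p = 1.64e-10). Top2a, the DNA topoisomerase gene often read as a sign of cycling, rose 2.60-fold to 1459 ± 256 CPM, and the cytokinesis genes Kif23, Ect2 and Cep55 rose by 1.27, 1.26 and 1.02. Mki67, the gene of the proliferation antigen Ki-67, read 553 ± 33.6 CPM in Diff.Spg, 1135 ± 396 in PreL and 759 ± 19.3 in LZ, and its difference between the ends of the comparison missed the threshold (log2 0.46 ± 0.20, adjusted p = 0.0517). The other genes with the most negative step differences were Nutm1, E2f2, Ska1 and Plk5. E2f2, which encodes an E2F factor, went from 38.7 ± 2.79 to 138 ± 24.4 CPM in PreL and was back at 31.2 ± 0.640 in LZ.

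The licensing and firing genes of DNA replication were divided. Of 40 genes 14 rose and 14 fell, near the 30.8% and 32.4% of all genes, with a median of 0.07 that turned to -0.18 with scaling by total counts alone. Cdt1, which loads the replicative helicase, fell by 3.25 on the log2 scale from 182 ± 12.3 to 19.11 ± 2.02 CPM, and the helicase subunit genes Mcm2 and Mcm7 fell by 1.85 and 1.59. In the other direction Gins3 and Prim1, which encode parts of the active helicase and of the primase, rose by 1.80 and 1.69, and Rrm2, which encodes the small subunit of ribonucleotide reductase, rose by 1.58. In the list of cyclins of the first gap phase, their inhibitors and E2F factors, 13 of 30 (43.3%) fell and 10 (33.3%) rose. Over all tested genes 32.4% fell and 30.8% rose. Without LZ replicate 2 the list had 13 falls (43.3%) and 7 rises (23.3%), when 31.1% of all genes fell and 27% rose. Ccnd1, Ccnd2 and Ccnd3 all fell (-2.49, -8.14 and -1.65), with their kinases Cdk4 and Cdk6 (-1.79 and -2.78). Ccne2, which encodes a cyclin E, and the inhibitor gene Cdkn2d rose by 2.31 and 2.19.

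**Figure D3:**
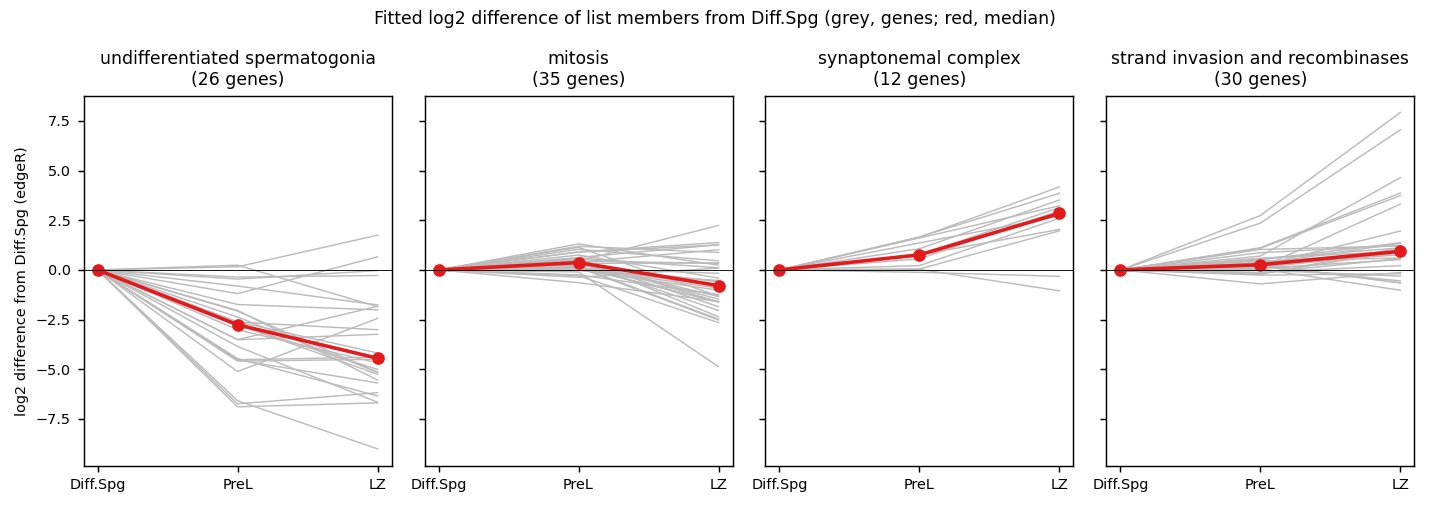
Log2 difference from Diff.Spg (edgeR) in PreL and LZ for the members of 4 gene lists; grey lines are genes and the red line their median. The undifferentiated genes had a median of -2.76 in PreL, the mitosis genes rose to a median of 0.37 in PreL before falling in LZ, and the meiotic lists rose mainly after PreL.

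RNA of mitotic and meiotic cohesin subunits moved in different directions for some members. The ring that holds sister chromatids has a mitotic kleisin, RAD21, and the meiotic kleisins REC8 and RAD21L. Rad21, at chr15:51962240-51991747, read 581, 545 and 527 CPM in Diff.Spg, 374, 276 and 364 in PreL and 95.6, 77.8 and 80.0 in LZ. The 3 populations were apart, and the fall was 6.53-fold (log2 -2.71 ± 0.13, edgeR adjusted p = 8.36e-11). Rad21l read 3.79, 5.24 and 5.79 CPM in Diff.Spg and 174, 187 and 238 in LZ. It was the strongest gain in the group, 40.5-fold (log2 5.33 ± 0.29, edgeR adjusted p = 1.82e-10), and 3.61 of it came after PreL. Rec8 was early: it rose from 30.5 ± 5.40 CPM to 100 ± 8.86 in PreL and stood at 114 ± 16.6 in LZ, with a step difference of -1.54 ± 0.26 (adjusted p = 0.00028).

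Smc1b, the meiotic partner of SMC3 in the ring, rose by 2.35 on the log2 scale to 1192 ± 148 CPM, and Stag3, which encodes the meiotic cohesin subunit that binds the kleisin, rose by 2.42 to 1295 ± 202 CPM (SD, n = 3). Smc1a, the mitotic counterpart of Smc1b, was at 53.4 ± 2.83 CPM in Diff.Spg, 108 ± 17.7 in PreL and 52.0 ± 6.51 in LZ, and the ends did not differ by the test (adjusted p = 0.846). Of the 6 meiotic cohesin genes tested 5 rose and none fell, and the sixth, Sgo2a, had a log2 difference of -0.09. Among 21 genes of mitotic cohesin, condensin and their loaders 11 (52.4%) rose and 6 (28.6%) fell, beside 30.8% and 32.4% of all tested genes. Nipbl, the cohesin loader gene, rose 15.4-fold (log2 3.95 ± 0.24, edgeR adjusted p = 5.06e-10), and Esco2, an acetyltransferase gene of cohesin, rose by 1.82. Cdca5, which encodes sororin, the protector of mitotic cohesion, fell by 2.73.

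Genes of meiotic entry rose, and their timing differed. Of 15 such genes 13 rose, and Nanos3, an RNA-binding protein gene of spermatogonia, was the 1 that fell. Stra8, at chr6:34920163-34939344, read 283, 352 and 347 CPM in Diff.Spg, 119, 269 and 183 in PreL and 1075, 966 and 1121 in LZ. PreL was the lowest of the 3 populations in every library and LZ the highest. The rise from Diff.Spg was 3.22-fold (log2 1.69 ± 0.30, edgeR adjusted p = 9.46e-05), made of a difference of -0.78 to PreL and of 2.47 after it (step difference 3.25 ± 0.54, adjusted p = 0.00026). In PD and RS Stra8 read under 1 CPM on average. The gene annotated as Gm4969 encodes MEIOSIN, the partner of STRA8, and lies at chr7:19099046-19118368. It read 10.95, 23.0 and 20.4 CPM in Diff.Spg, 109, 186 and 92.4 in PreL and 708, 866 and 901 in LZ. The populations were apart, with a total rise of 45.5-fold (log2 5.50 ± 0.38, edgeR adjusted p = 2.53e-09) split evenly between the steps (2.83 and 2.67). Meioc, which encodes an RNA-binding partner of YTHDC2 that is needed to leave the mitotic programme, rose mostly before PreL, from 66.4 ± 1.80 CPM to 437 ± 50.7 and then to 788 ± 61.4 (step difference -1.86 ± 0.21, edgeR adjusted p = 8.39e-06).

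Among the genes that make and place the breaks, 11 of 14 rose and 2 fell, with a median of 1.52. Spo11, which encodes the enzyme that cuts, read 3.23, 3.67 and 3.42 CPM in Diff.Spg, 2.10, 7.03 and 3.14 in PreL and 43.0, 45.2 and 56.3 in LZ. PreL overlapped Diff.Spg, and LZ lay above both. Nearly all of the 14.0-fold rise came after PreL (log2 3.80 ± 0.29 in all, step difference 3.28 ± 0.52, edgeR adjusted p = 0.000171). Its partner gene, annotated as Gm960 and known as Top6bl, rose by 3.09, and Ccdc36, which encodes the break-promoting protein IHO1 of chromosome axes, rose by 2.59. Prdm9, whose product marks the sites of breaks in mice, read 12.3, 14.8 and 14.3 CPM in Diff.Spg, 56.3, 72.3 and 44.3 in PreL and 253, 308 and 350 in LZ. All 3 populations were apart, and the rise was 22.0-fold (edgeR adjusted p = 3.14e-10). Zcwpw1, which encodes a reader of the PRDM9 mark, rose by 2.36. The genes that fell were Ehmt2 and Cdyl, which encode a histone methyltransferase of the repressive mark on lysine 9 and a reader of repressive marks (-2.71 and -1.88).

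The recombinases and their helpers included the largest rise among genes with at least 50 CPM in LZ, predicted, Riken and mitochondrial genes left out. Rad51ap2, a testis gene, lies at chr12:11456079-11462928. It read 0.140, 0.648 and 0.374 CPM in Diff.Spg, 1.25, 4.72 and 2.21 in PreL and 79.6, 96.2 and 128 in LZ. Each step separated the libraries, and the rise was 261-fold (log2 7.93 ± 0.52, edgeR adjusted p = 1.41e-09), with means of 0.193 CPM in PD and 1.56 CPM in RS. Meiob, which encodes a single-strand DNA binding protein of meiosis, rose 136-fold from 0.833 ± 0.214 to 113 ± 22.7 CPM (SD, n = 3). Dmc1, the meiotic recombinase gene, read 33.8, 37.9 and 39.0 CPM in Diff.Spg, 70.1, 94.5 and 75.5 in PreL and 438, 526 and 649 in LZ. The populations were apart, and more of the rise of 14.6-fold came after PreL (step difference 1.63 ± 0.39, edgeR adjusted p = 0.004).

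Brca2, whose product loads recombinases onto DNA, rose by 1.96, and the meiotic BRCA2 partners Hsf2bp and 4930432K21Rik (Brme1) rose by 3.74 and 3.32. Over the list 22 of 30 rose and 4 fell. The 4 were Rad54l and Rad54b, which encode motor proteins of recombination, and Rpa1 and Rpa2, which encode subunits of the general single-strand binding complex (-1.02, -0.66, -0.64 and -0.55). The call of Rpa2 was lost without Diff.Spg replicate 3 (edgeR adjusted p = 0.0611) or LZ replicate 2 (adjusted p = 0.0706). Brca1, Palb2, Rad50 and Exo1 did not pass the test, with log2 differences between -0.31 and 0.22.

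The synaptonemal complex and the axis on which it stands rose almost throughout, 10 of 12 genes with a median of 2.85. Sycp3, an axis gene whose promoter is shown above, read 42.3, 45.0 and 49.1 CPM in Diff.Spg, 52.5, 66.2 and 82.8 in PreL and 312, 328 and 438 in LZ. The populations did not overlap, and most of the 7.90-fold rise came after PreL (log2 0.56 and then 2.42, step difference 1.86 ± 0.30, edgeR adjusted p = 0.000187). Sycp1, which encodes the transverse filament between the axes, was already at 147 ± 12.3 CPM in Diff.Spg and rose in equal steps of 1.36 and 1.35 to 958 ± 114 in LZ. Sycp2, the axis partner of Sycp3, gained the most in the list, from 58.3 ± 3.16 to 1060 ± 131 CPM (18.2-fold). Hormad1 and Tex12, the other genes with CACGTG and GCGGGA promoters shown above, encode an axis protein that marks unjoined chromosomes and a part of the central element, and rose by 3.86 and 3.14. Trip13, which encodes the enzyme that strips HORMAD proteins from joined axes, fell by 1.05, with -1.08 of it after PreL.

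Crossover genes rose in 13 of 14 cases, and in 11 without LZ replicate 2 or without Diff.Spg replicate 3. With LZ replicate 2 and PreL replicate 2 both left out 13 rose. Mlh3, which encodes a late-acting nuclease of crossover resolution, fell by 0.57, a call lost without Diff.Spg replicate 1 (edgeR adjusted p = 0.0727) or LZ replicate 3 (adjusted p = 0.0624). Msh5, which encodes a clamp on recombination intermediates, read 7.23, 9.23 and 11.4 CPM in Diff.Spg and 222, 318 and 360 in LZ. LZ lay far above in every library (32.3-fold, log2 5.01 ± 0.26, edgeR adjusted p = 1.57e-10). Its partner Msh4 rose by 2.81, the helicase gene Hfm1 by 4.95 and AI481877, known as Shoc1, by 4.37. For the genes that tie telomeres to the nuclear envelope the count was 10 higher and 2 lower of 14. The meiotic adaptor genes Terb1, Terb2 and Majin rose by 4.63, 4.57 and 3.91, the gene of the motor adaptor KASH5, annotated as Ccdc155, by 3.76, and Spdya, which activates CDK2 at telomeres, by 5.53. The 2 that fell were Pot1a, a shelterin gene of all cells, and Sun2 (-1.60 and -0.93).

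The 6 lists of meiotic chromosome genes (cohesin, synaptonemal complex, breaks, strand invasion, crossover and telomere genes) held 89 different tested genes. Of these 44 (49.4%) rose and 4 fell from Diff.Spg to PreL, when 20.4% of all genes rose and 24.8% fell. From PreL to LZ 62 (69.7%) rose and 13 fell, when 24.3% of all genes rose and 23.2% fell. Over the whole interval 70 (78.7%) rose and 10 fell, and without LZ replicate 2 the counts were 67 and 9. Of 21 genes of DNA damage signalling, 11 (52.4%) rose and 3 (14.3%) fell from Diff.Spg to LZ, beside 30.8% and 32.4% of all tested genes. Atr, the kinase gene that signals unjoined axes, rose by 2.52 from 170 ± 11.4 to 975 ± 93.3 CPM, and Mdc1, which encodes the spreader of the damage mark, rose by 3.24. Trp53 and Chek2, which encode the checkpoint effectors p53 and CHK2, fell by 2.60 and 1.59.

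**Figure D4:**
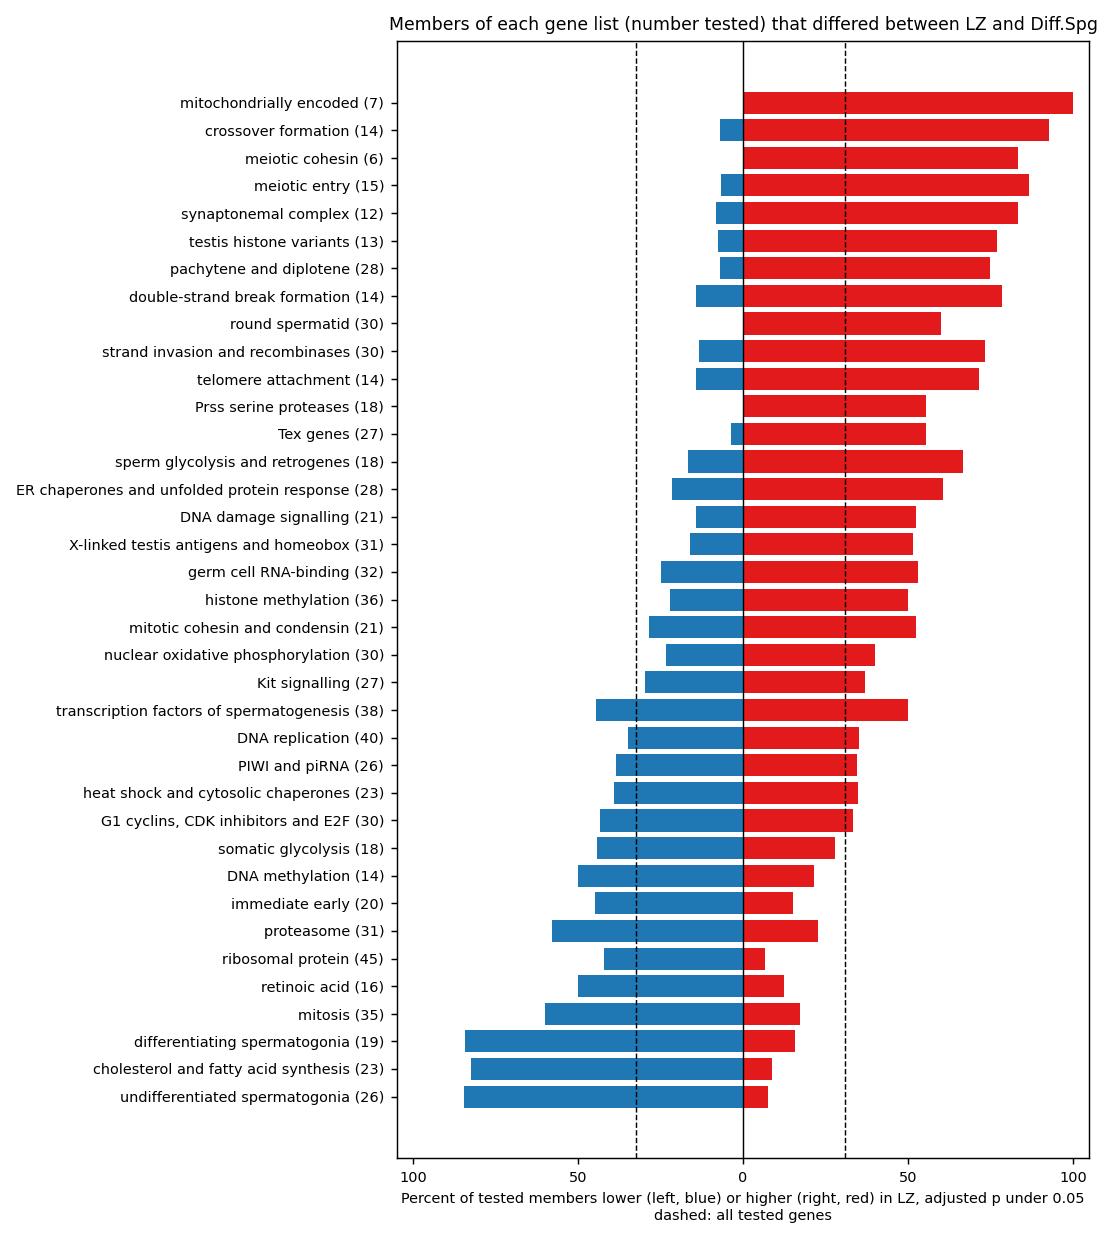
Percentage of the tested members of each gene list (number tested in parentheses) that were higher (red, right) or lower (blue, left) in LZ than in Diff.Spg at an adjusted p under 0.05; dashed lines mark 30.8% higher and 32.4% lower among all tested genes. Mitochondrially encoded genes (7 of 13 listed genes tested) and crossover genes stand at the top and genes of undifferentiated spermatogonia at the bottom. The lists of late genes (pachytene, round spermatid, sperm glycolysis, Prss and Tex) include calls that were lost without LZ replicate 2.

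Regulators of chromatin and RNA moved in both directions. Among 14 genes of DNA methylation 7 (50%) fell and 3 (21.4%) rose, beside 32.4% and 30.8% of all tested genes. The maintenance genes Dnmt1 and Uhrf1 fell by 1.08 and 1.35, and the demethylase gene Tet2 rose by 3.20, to 5.15 ± 0.790 CPM. Among 36 histone methylation genes 18 (50%) rose and 8 (22.2%) fell, beside 30.8% and 32.4% of all tested genes. Kdm6a, an X-linked demethylase gene of lysine 27, rose from 18.4 ± 1.15 to 198 ± 42.1 CPM, and Ezh2, which encodes the methyltransferase of the same residue, rose by 1.89. Of 26 genes of the PIWI pathway, which silences transposons, 9 rose and 10 fell (8 and 11 without LZ replicate 2), near the 30.8% and 32.4% of all genes. Piwil4 and Spocd1, known for directing DNA methylation in fetal germ cells, fell by 6.17 and 4.46 to under 1 CPM, and Tdrd1, which encodes a scaffold of the cytoplasmic complex, fell 6.08-fold. Tex15, which has roles in that pathway and in recombination, rose by 2.05 to 1702 ± 157 CPM. E2f6, which encodes a repressor bound at meiotic promoters in non-meiotic cells, stood at 75.3 ± 1.10, 47.2 ± 9.83 and 10.03 ± 2.23 CPM in Diff.Spg, PreL and LZ (a fall of log2 -2.91 ± 0.32, edgeR adjusted p = 5.6e-07).

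Several transcription factor genes of later stages were already up in LZ. Mybl1, the master factor gene of pachytene in mice, read 1.61, 1.998 and 1.68 CPM in Diff.Spg, 7.05, 12.3 and 6.57 in PreL and 101, 113 and 128 in LZ. The populations were apart, and the rise was 64.7-fold (log2 6.00 ± 0.26, edgeR adjusted p = 2.8e-11; 6.01 without LZ replicate 2). Zfp541, which encodes a chromatin factor of pachytene, rose by 4.07, and Crem, an activator gene of spermatids, by 3.24, with 3.99 and 3.14 without LZ replicate 2. Over 38 transcription factor genes 19 (50%) rose and 17 (44.7%) fell, beside 30.8% and 32.4% of all tested genes. Their median was 0.48 with all libraries and -0.05 without LZ replicate 2. Pbx3, a homeobox gene, rose from 7.71 ± 1.10 to 502 ± 160 CPM and was at 8.40 ± 1.17 in PD.

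More genes of secretory chaperones rose than fell, and most genes of lipid synthesis fell. Hspa5, which encodes BiP, the main chaperone of the endoplasmic reticulum, read 352, 329 and 340 CPM in Diff.Spg, 842, 803 and 967 in PreL and 2646, 2790 and 3381 in LZ. The populations were apart, and the rise was 8.64-fold (log2 3.11 ± 0.12, edgeR adjusted p = 8.78e-12). It had the most reads in LZ, not corrected for length, of the genes that rose at least 2-fold, predicted, Riken and mitochondrial genes left out. Of 28 genes of this group 17 rose and 6 fell. The BiP partner gene Dnajc3 rose by 3.30, Calr, the lectin chaperone gene, by 2.02 and Hsp90b1 by 1.84. The sensor genes of the unfolded protein response did not move together: Ern1 and Atf6 rose by 1.66 and 1.38, Eif2ak3 fell by 0.78, the effector gene Xbp1 fell by 1.55, and Ddit3 had a difference of -0.01 that did not pass. Hsp90ab1, the cytosolic counterpart of Hsp90b1, fell from 2716 ± 77.6 to 704 ± 98.3 CPM (log2 -1.95). In its list of heat shock genes 8 of 23 (34.8%) rose and 9 (39.1%) fell (6 and 7 without LZ replicate 2). These shares lie near the 30.8% and 32.4% of all tested genes.

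Of 23 genes of cholesterol and fatty acid synthesis 19 fell and 2 rose, with a median of -1.82. Fasn, the fatty acid synthase gene, read 1325, 1193 and 1222 CPM in Diff.Spg, 316, 227 and 304 in PreL and 71.8, 59.5 and 45.3 in LZ. The populations were apart, and the 21.2-fold fall (log2 -4.41 ± 0.18, edgeR adjusted p = 1.54e-11) was split evenly, -2.15 and -2.26. Mvd of the cholesterol pathway fell by 5.23, and the regulator genes Srebf1 and Srebf2 fell by 1.72 and 1.65. Idi1 and Acaca rose by 1.06 and 0.72. Of 18 genes of somatic glycolysis 8 (44.4%) fell and 5 (27.8%) rose, with a median of -0.54, when 32.4% of all tested genes fell and 30.8% rose. Without LZ replicate 2 the counts were 9 (50%) and 3 (16.7%) with a median of -1.12, when 31.1% of all genes fell and 27% rose. Hk2, the hexokinase gene, fell by 5.85 from 67.0 ± 5.97 to 1.16 ± 0.364 CPM, and Ldha, among the 5 that rose, read 6.36, 57.6 and 8.15 CPM in LZ and lost its call without LZ replicate 2 (0.53, edgeR adjusted p = 0.507), and also without Diff.Spg replicate 1 (adjusted p = 0.0589) or 3 (adjusted p = 0.0705). Proteasome genes fell in 18 of 31 cases (58.1%) and ribosomal protein genes in 19 of 45 (42.2%), and 7 and 3 rose, when 32.4% of all tested genes fell and 30.8% rose. Without LZ replicate 2, 17 proteasome genes fell and 8 rose. Of the ribosomal protein genes 15 (33.3%) then fell and 5 rose, and the falls were near the 31.1% of all genes in that fit.

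A larger share of X-linked than of autosomal genes was called higher in LZ, and the difference between the shares was not tested. At least 2-fold higher were 205 of 750 X-linked genes (27.3%) and 3648 of 17658 autosomal genes (20.7%), and at least 2-fold lower were 16.8% and 24.5%. The median log2 difference was 0.49 on the X and 0.04 on the autosomes. The X took 2.33% to 2.37% of the counts in Diff.Spg libraries, 2.69% to 2.92% in LZ and 0.0573% to 0.0823% in PD. In the list of X-linked testis genes 16 of 31 rose and 5 fell, and 15 and 3 did without LZ replicate 2. Magea4 rose from 0.766 ± 0.177 to 26.2 ± 3.01 CPM, Fmr1nb from 12.4 ± 0.204 to 182 ± 19.8 and Ccnb3, the cyclin B3 gene, from 7.75 ± 0.623 to 145 ± 20.6 (SD, n = 3). Rhox10, a homeobox gene of spermatogonia, fell by 6.94.

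**Figure D5:**
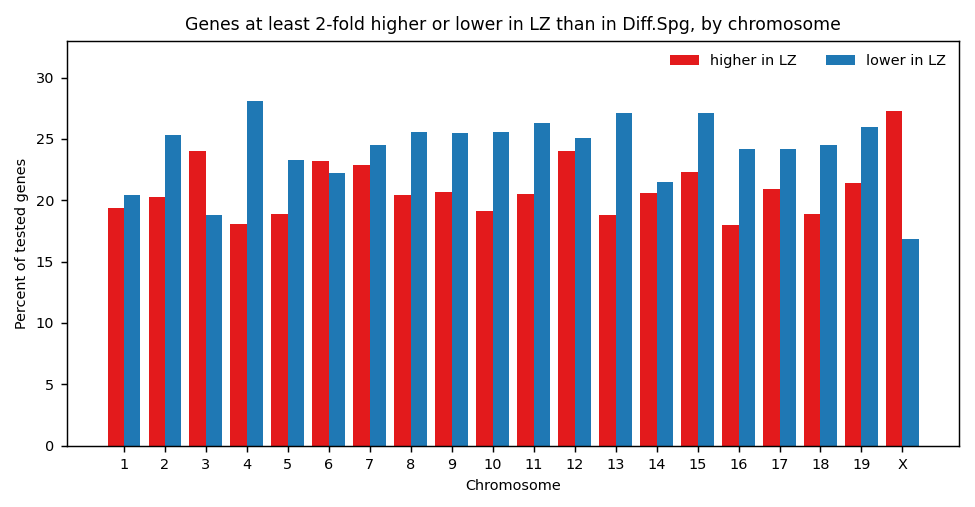
Percentage of the tested genes of each chromosome that were at least 2-fold higher (red) or lower (blue) in LZ than in Diff.Spg at an adjusted p under 0.05. The X has 27.3% higher and 16.8% lower; the autosomes together have 20.7% and 24.5%.

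Most of the rises that were lost without LZ replicate 2 were those of genes of later stages. Of the 439 late genes 351 rose at least 2-fold with all libraries, with a median log2 difference of 2.67, and 73 did so without LZ replicate 2, with a median of 1.05. These genes were chosen for a low level in Diff.Spg, which favours rises from Diff.Spg in advance. The counts therefore show only how the calls changed when LZ replicate 2 was left out. Of the 655 genes called at least 2-fold higher with all libraries and not without it, 603 had their highest mean in PD or RS. In 390 of the 3886 genes LZ replicate 2 was more than 3 times both other LZ libraries, against 13 genes for replicate 1 and 1 gene for replicate 3. Ldhc, the lactate dehydrogenase gene of spermatocytes and sperm, read 6.11, 14.3 and 4.67 CPM in Diff.Spg and 15.3, 148 and 22.9 in LZ. Replicate 2 alone stood high in LZ, and the log2 difference of 2.88 ± 0.88 (edgeR adjusted p = 0.00867) became 1.18 without it (adjusted p = 0.179). With PreL replicate 2 also left out the difference was 1.17 and passed the test (edgeR adjusted p = 0.023).

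Tdrd6 and Atp8b3 followed Ldhc, from 2.44 to 0.10 and from 2.31 to 0.56. Both calls were also lost without Diff.Spg replicate 1 (edgeR adjusted p = 0.111 and 0.0708) or 3 (adjusted p = 0.111 and 0.0738). Piwil1, the PIWI gene of pachytene, read 21.5, 24.0 and 22.1 CPM in Diff.Spg and 8.59, 36.6 and 4.48 in LZ. LZ lay on both sides of Diff.Spg, and the difference was -0.44 with all libraries (edgeR adjusted p = 0.531) and -1.79 without LZ replicate 2 (adjusted p = 0.00718). In the pachytene list 21 of 28 (75%) rose and 2 fell with all libraries, and 10 (35.7%) rose and 4 fell without LZ replicate 2. Over all tested genes 30.8% rose in the first fit and 27% in the second. With PreL replicate 2 also left out 17 members of the pachytene list rose and 4 fell. Without Diff.Spg replicate 3 instead, 13 rose and 2 fell. In the round spermatid list the rises were 18 of 30 (60%) with all libraries and 11 (36.7%) without LZ replicate 2. In the sperm glycolysis list they were 12 of 18 (66.7%) and 4 (22.2%). Among Prss proteases they were 10 of 18 (55.6%) and 6 (33.3%), and among Tex genes 15 of 27 (55.6%) and 10 (37%). With PreL replicate 2 also left out 17 round spermatid and 9 sperm glycolysis genes rose. Without Diff.Spg replicate 3 instead, 13 and 8 rose. Not all late genes depended on LZ replicate 2. Prm1, a protamine gene, read 22.7, 4.23 and 2.72 CPM in LZ, highest in replicate 1. It rose by 3.40 with all libraries and 3.77 without LZ replicate 2, but its difference was 1.90 without LZ replicate 1 (edgeR adjusted p = 0.0731). Tex101 and Prss50, testis surface protein and protease genes, were steady, at 1742, 1830 and 2208 CPM and at 1297, 1734 and 1981 CPM in LZ, rises of 4.24 and 5.26.

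Markers of other cells were low but did not stay level. Of 19 Sertoli cell markers 17 passed the filter, 10 rose and 4 fell, and their summed level was 84.0 to 90.7 CPM in Diff.Spg and 193 to 252 CPM in LZ. Clu, Amhr2 and Cldn11 rose by 3.83, 3.72 and 5.18, while the defining factor genes Wt1, Gata4 and Sox9 stood at 2.38 ± 0.654, 2.10 ± 0.906 and 1.08 ± 0.171 CPM in LZ, below their Diff.Spg means. Of 12 immune markers 4 passed. Their summed level was 3.09 to 5.17 CPM in Diff.Spg and 34.5 to 55.1 CPM in LZ, nearly all of it Cd3e, which read 44.8, 32.6 and 52.8 CPM in LZ, while Cd68 stood at 1.35 and Cd14 at 0.341 CPM and Ptprc and Cd74 did not pass the filter. Of 8 endothelial markers 6 passed, 5 fell and none rose. Leydig markers summed to 4.05 to 5.48 CPM in Diff.Spg and 4.93 to 9.66 CPM in LZ, with no LZ read of Cyp11a1 or Lhcgr, and stromal markers to 38.2 to 42.8 and 30.0 to 36.6 CPM. None of 6 erythroid markers was called, and the globin genes had no read. The part of other cells in the gene lists above was not tested.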

How the data were processed

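The 18 RNA libraries cover 6 sorted populations with 3 libraries each. The authors deposited unscaled whole-number read counts for each gene. HTSeq, STAR 2.4.2a, GRCm38, cutadapt and DESeq2 stand in the submitters' processing notes without role or order. The sources used here give neither annotation release, strand setting nor filters, so antisense, overlapping and near-identical genes may share reads. Reads carry no molecular identifiers, and floors cover counting error only.

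GENCODE M21 gave names and coordinates for 46091 of 46603 gene IDs; the other 512 held 0.0479% to 0.109% of the counts of a library. Counts were fitted in 1 model of all 18 libraries with edgeR 4.0.16 (R 4.3.3; TMM scaling, filterByExpr over the 6 groups, quasi-likelihood test), checked on simulated counts. The test was 2-sided with Benjamini-Hochberg adjustment over 18547 genes. The step difference is (LZ minus PreL) minus (PreL minus Diff.Spg). A count of genes needed an adjusted p under 0.05 and a 2-fold change; single genes and list members needed the adjusted p. Genes named are fixed ones, the largest changes with at least 50 CPM, those with most reads, list members and those with the largest step differences. Members, lists and rules were chosen with earlier results of these data known. Deviations of same-numbered Diff.Spg and LZ libraries correlated at 0.127, 0.4 and 0.159, all over 0.1, although Diff.Spg replicate 3 with LZ replicate 1 (0.171) and Diff.Spg replicate 1 with LZ replicate 3 (0.102) did so too, so the replicate number was also fitted as a block. Alternatives were DESeq2 1.42.0, RLE scaling, total counts only, other low-count filters and leaving out each library. Some genes that the naming rule covers are not reported here.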

Additional observations from a re-analysis of the deposited data

How the results depend on the processing

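The counts of genes at least 2-fold higher and lower, 3886 and 4467, were 3790 and 4537 with RLE scaling, 4107 and 4956 with no filter on low counts, 3805 and 4305 with at least 1 CPM in 3 libraries, 3964 and 4501 with DESeq2, and 3791 and 4376 with LZ and Diff.Spg fitted alone. Scaling by total counts only gave 3012 and 5221, a share of 36.6% higher among the called genes against 46.5%, and shifted the median of all genes by -0.241. With each library left out in turn the counts ran from 3359 to 4047 and from 4311 to 4574. With the replicate block they were 3856 and 4459, and the block changed the call of none of the 177 genes named.

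Of 2653 values of these genes under the alternatives, 2605 kept their direction and their side of the threshold, 20 lost the call, 17 gained it and 11 changed sign. The sign changes were in genes that did not pass the test in the first place: Birc5 (-0.13 with total counts only, -0.04 without LZ replicate 3), Brca1 (-0.03 with total counts only), Ddit3 (0.02, 0.06 and 0.18 without Diff.Spg replicate 1, Diff.Spg replicate 2 and LZ replicate 3, from -0.27 to 0.18 over all libraries left out), Id4 (0.15, 0.09 and 0.04 without Diff.Spg replicate 3, LZ replicate 1 and LZ replicate 3, from -0.32 to 0.15 over all) and Smc1a (0.03 without LZ replicate 2, alone or with PreL replicate 2, from -0.15 to 0.03 over all). The cause was not tested. With total counts only, the list medians of PIWI genes and nuclear oxidative phosphorylation genes turned from 0.07 to -0.17 and from 0.02 to -0.22. Without LZ replicate 2 the median of the transcription factor list was -0.05 instead of 0.48. Depth limits genes under about 1 CPM, where a library holds few reads.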

Other observations

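The other genes among the 10 largest rises with at least 50 CPM in LZ, predicted, Riken and mitochondrial genes left out, were H2-Ab1, Gal3st1, Sdk1, Fbxo47, Prss41 and Ly6k. Gal3st1, which encodes the sulfotransferase that makes the sulfated lipid of germ cells, read 2.53, 5.29 and 3.92 CPM in Diff.Spg and 198, 241 and 301 in LZ, with no overlap (log2 5.96 ± 0.31, edgeR adjusted p = 1.52e-10). Fbxo47, an F-box gene of meiosis in mice, had log2 differences of 0.98 to PreL, which did not pass the test (edgeR adjusted p = 0.0504), and of 4.72 after it. Ly6k, which encodes a surface partner of TEX101, rose from 5.64 ± 0.244 to 282 ± 42.1 CPM. H2-Ab1, a class II MHC gene, read 42.4, 70.5 and 86.9 CPM in LZ and 0.351, 0.594 and 0.436 in Diff.Spg, and MHC genes can share reads. The markers Cd74 and Ptprc did not pass the filter.

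Some genes lost their RNA before PreL and regained part of it in LZ. Utrn, the utrophin gene, had the largest positive step difference among genes with at least 50 CPM in Diff.Spg, PreL or LZ, predicted, Riken and mitochondrial genes left out. It read 58.1 ± 2.10 CPM in Diff.Spg, 0.901 ± 0.323 in PreL and 2.83 ± 0.853 in LZ (7.59, edgeR adjusted p = 6.52e-08). Dlgap4, a scaffold protein gene, went from 92.7 ± 2.54 through 7.89 ± 2.31 to 60.02 ± 15.3 CPM, and Elf4, an X-linked ETS factor gene, from 163 ± 7.63 through 5.86 ± 0.457 to 18.4 ± 5.72 CPM. Of 13 mitochondrially encoded protein genes 7 were tested, and 5 (mt-Nd4l, mt-Co2, mt-Co3, mt-Atp6 and mt-Atp8) had no read in LZ or Diff.Spg. The reason was not tested. All 7 tested genes rose, with a median log2 difference of 1.17, but 5 of the 7 were called without LZ replicate 1. The count was 6 without LZ replicate 3, without each of the Diff.Spg libraries in turn or with total counts only. The gene mt-Co1 read 8936, 8288 and 8686 CPM in Diff.Spg and 24005, 14550 and 18093 in LZ. Nuclear genes of oxidative phosphorylation rose in 12 of 30 cases (40%) and fell in 7 (23.3%), beside 30.8% and 32.4% of all tested genes, with a median of 0.02. Among genes annotated as antisense 24% rose and 10.5% fell at least 2-fold, and the strand setting of the counting is not given in the sources used here.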
